A study of Solanum lycopersicum with 3 samples.

Results

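The light-harvesting chlorophyll a/b-binding genes of the nucleus were examined in tomato (Solanum lycopersicum) leaf primordia of the mutant slmp. The genes were chosen by locus identifier from a list of 31, of which 30 are among the 21717 loci of the deposited table and were analysed. The other, Solyc05g056060, was not analysed here. The study holds 1 group of 3 replicate libraries: slmp-1 plants, genotyped when young, grown with 18 h light and 6 h dark per day, mock-treated by a water spray 1 h before collection. Each library pooled 15 primordia of leaf 5 at stage P5, where P numbers the primordia of a shoot from the youngest on. All libraries share the genotype and the mock spray, so nothing here compares mutant with wild type or treated with untreated plants. Whether the pools came from separate sets of plants is not given in the labels, so the spread between libraries may be partly technical.

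Light-harvesting proteins hold chlorophyll a, chlorophyll b and carotenoids in the thylakoid membrane of the chloroplast and pass absorbed light energy to the reaction centres of photosystem I or photosystem II. They are encoded in the nucleus by a gene family with tandem copies, made in the cytosol and imported into the plastid. Their transcripts are known to be abundant in green leaves and to respond to light, to the circadian clock and to the state of the plastid. The loci carry identifiers without gene names. A RefSeq gene table of the assembly SLM_r2.1 paired 0 of the identifiers with a symbol, so no locus is given its own name, photosystem or role. Genes that carry CAB or LHC names there number 17, of which 4 are on chromosome 2 and 3 on chromosome 3. The 4 on chromosome 2 have 1 other gene listed among them.

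Values are the scaled values that the authors deposited, which behave as read counts divided by 1 factor per library. The libraries were made with a 3′ end kit that yields about 1 fragment per transcript, so loci are compared without division by gene length. Recovery of the last stretch of a transcript can still differ between loci. The loci of replicates 1, 2 and 3 summed to 2746410, 2574146 and 2499843 steps, where a step is the value that 1 read is taken to have. The level of 3 steps was 2.84, 3.12 and 3.23 scaled units. Markers of the primordium were not checked here.

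All 30 light-harvesting loci were expressed in every library. Each reached at least 10 scaled units in all 3 libraries, the level called detected, against 68.7% of all loci. Their median mean was 720.1 scaled units, against 33.3 over all loci, and 29 of the 30 lay above that median. A mean of 1000 or more was reached by 12 of the 30 members and by 1.95% of all loci. The members made up 0.138% of the loci and took 1.27% ± 0.436 (SD, n = 3) of the summed locus values.

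Solyc03g005760 was the highest member, at 8979 scaled units in replicate 1, 4822 in replicate 2 and 11290 in replicate 3. Its mean of 8364 ± 3277 (SD, n = 3) ranked 18 among all loci, and it alone took 24.4% ± 1.47 of the family's summed value. It was the only member among the 100 highest loci, and its lowest library stood above every value of every other member.

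The next members by mean lay close together. Solyc07g047850 had 2833, 1940 and 2712 scaled units in replicates 1, 2 and 3. Solyc02g070940 had 2732, 1293 and 3088. Solyc02g071030 had 2202, 1226 and 3404. Their means of 2495 ± 484.4, 2371 ± 950.5 and 2277 ± 1091 (SD, n = 3) differed by less than the spread between libraries, and their order changed between libraries. Solyc07g047850 varied least of them, with replicates 1 and 3 close together.

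The remaining members of the 10 highest had means from 1711 down to 1048. Solyc03g005770 had 1767, 1187 and 2180 scaled units in replicates 1, 2 and 3. Solyc02g071010 had 1366, 668.9 and 1819. Solyc12g011450 had 1118, 802.8 and 1863. In each of these the order of libraries was replicate 3, then 1, then 2. Solyc06g063370 had 1309, 899.4 and 1270 scaled units, and Solyc09g014520 had 1145, 877.6 and 1194. Solyc02g070980 had 1047, 632.5 and 1465. Replicates 1 and 3 nearly coincided for Solyc06g063370 and Solyc09g014520, and stood apart for Solyc02g070980. Replicate 2 was lowest at all 10.

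Below these, 15 members had means from 1034 to 482.2 scaled units, with single values between 255.5 and 1488. The other 5 members had means from 159.8 to 20.5. They were Solyc05g056050, Solyc12g011280, Solyc06g069730, Solyc12g009200 and Solyc06g069000. The lowest, Solyc06g069000, had 24.6, 24.9 and 11.9 scaled units, or 26, 24 and 11 steps. Counting error alone, taken as the inverse square root of the steps in the lowest library, was 30.2% for it and between 1.47% and 13.2% for the other 29. Counting error covers only part of the error, since reads of this kind without molecular identifiers are not independent molecules.

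**Figure D1:**
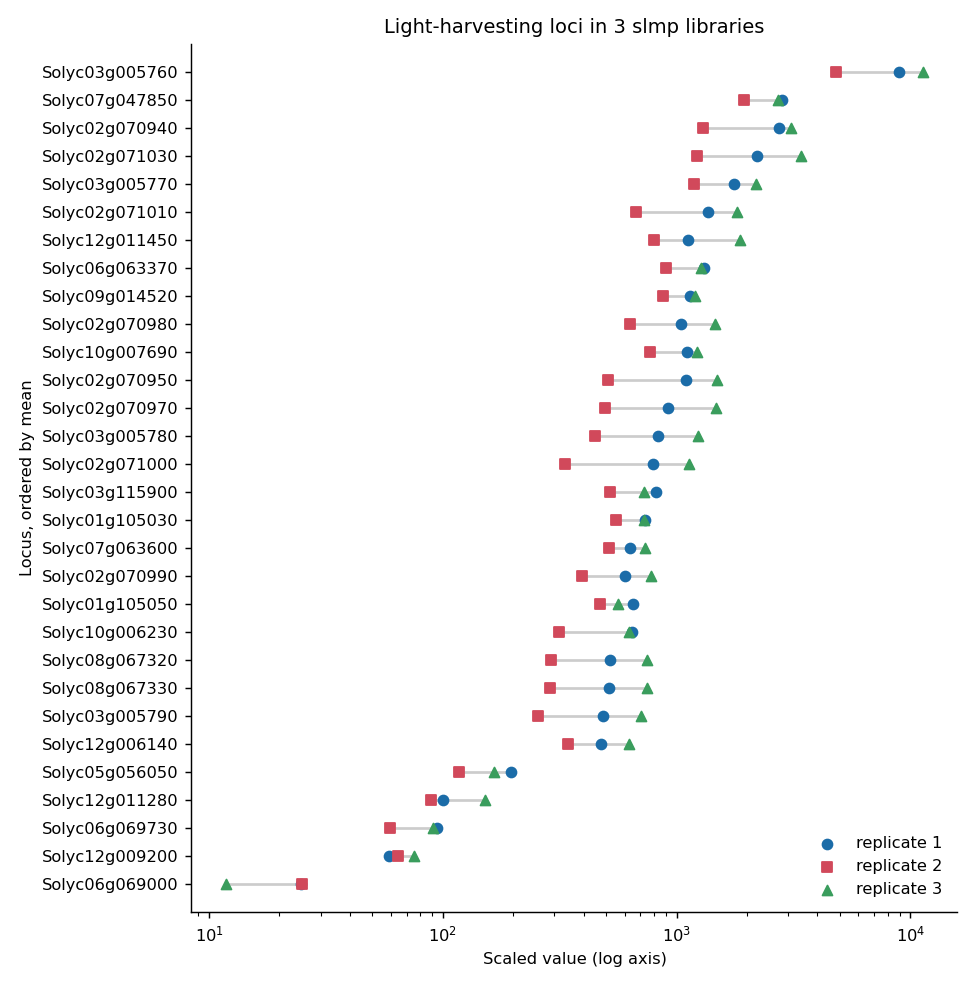
Scaled value (log axis) of each of the 30 light-harvesting loci in the 3 slmp libraries, ordered by mean; circles, squares and triangles are replicates 1, 2 and 3, and the grey line spans the 3 values. The square of replicate 2 is the leftmost mark at 28 of the 30 loci, the exceptions being the lowest-level loci Solyc12g009200 and Solyc06g069000.

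The family's share of each library differed between the replicates. It was 1.38% in replicate 1 (95% exact Clopper-Pearson interval 1.36 to 1.39, counting error only), 0.793% in replicate 2 (0.782 to 0.804) and 1.64% in replicate 3 (1.63 to 1.66). The intervals did not overlap. A share of this kind does not depend on the authors' scaling factor. In scaled values the family summed to 35805, 21194 and 44308, so replicate 1 held 1.69 times and replicate 3 held 2.09 times the value of replicate 2. In bulk tissue, fewer cells that express these genes and less of their RNA per cell cannot be told apart.

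Most of the family signal came from the copies on chromosomes 2 and 3. The 4 loci on chromosome 3 (Solyc03g005760 to Solyc03g005790) took 33.4% ± 1.58 (SD, n = 3) of the family total. The 8 loci on chromosome 2 (Solyc02g070940 to Solyc02g071030) took 29.8% ± 3.44. The pairs on chromosomes 12, 1 and 8 took 4.05% ± 0.587, 3.86% ± 0.959 and 3.00% ± 0.338. The analysed locus of the chromosome 5 pair took 0.492% ± 0.102. The 11 loci outside these groups took 25.5% ± 4.43.

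**Figure D2:**
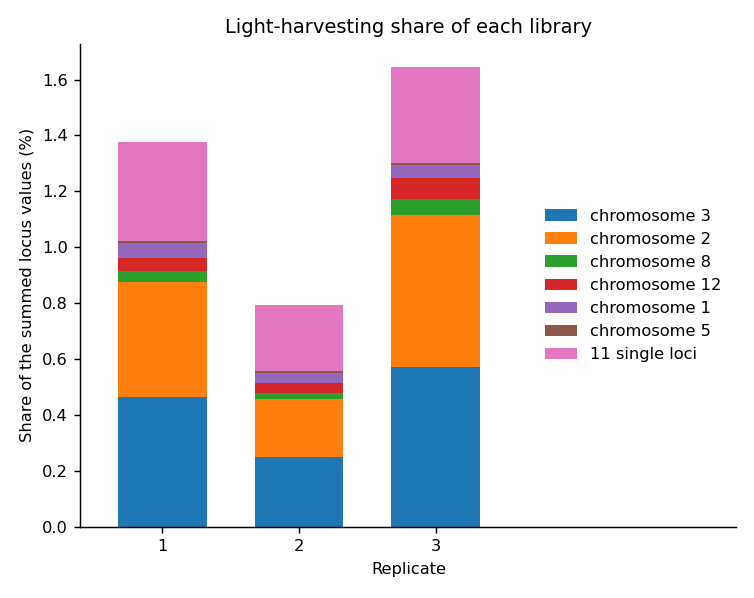
Share of the summed locus values of each library (percent) taken by the light-harvesting loci, stacked by chromosome group, with 1 bar per replicate. The bars reach 1.38%, 0.793% and 1.64% in replicates 1, 2 and 3, and the chromosome 2 and 3 segments account for most of the height that replicate 2 lacks.

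One copy held most of the chromosome 3 signal, whereas no copy did on chromosome 2. Solyc03g005760 took 74.4%, 71.8% and 73.3% of the chromosome 3 group in replicates 1, 2 and 3. Solyc03g005770 followed with 15.5% ± 1.92 (SD, n = 3), Solyc03g005780 with 7.19% ± 0.709 and Solyc03g005790 with 4.14% ± 0.408. This order was the same in every library, and neighbouring places differed by more than their spread.

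On chromosome 2 the highest copies stood at either end of the group in identifier order. Solyc02g070940 and Solyc02g071030 together took 45.9%, 45.4% and 44.3% of that group in replicates 1, 2 and 3. Solyc02g070940 led in replicate 1, with 25.4% (95% exact interval 24.6 to 26.2) against 20.5% (19.7 to 21.2). In replicate 2 the intervals overlapped, with 23.3% (22.2 to 24.4) against 22.1% (21.0 to 23.2). In replicate 3 the order turned, with 21.1% (20.4 to 21.8) against 23.2% (22.5 to 24.0). The means of 23.3% ± 2.16 and 21.9% ± 1.39 (SD, n = 3) differed by less than their spread. Solyc02g071010 was in the third place in every library, at 12.4% ± 0.326. The other 5 copies each took between 5.32% and 11.4%, and their order changed from library to library.

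**Figure D3:**
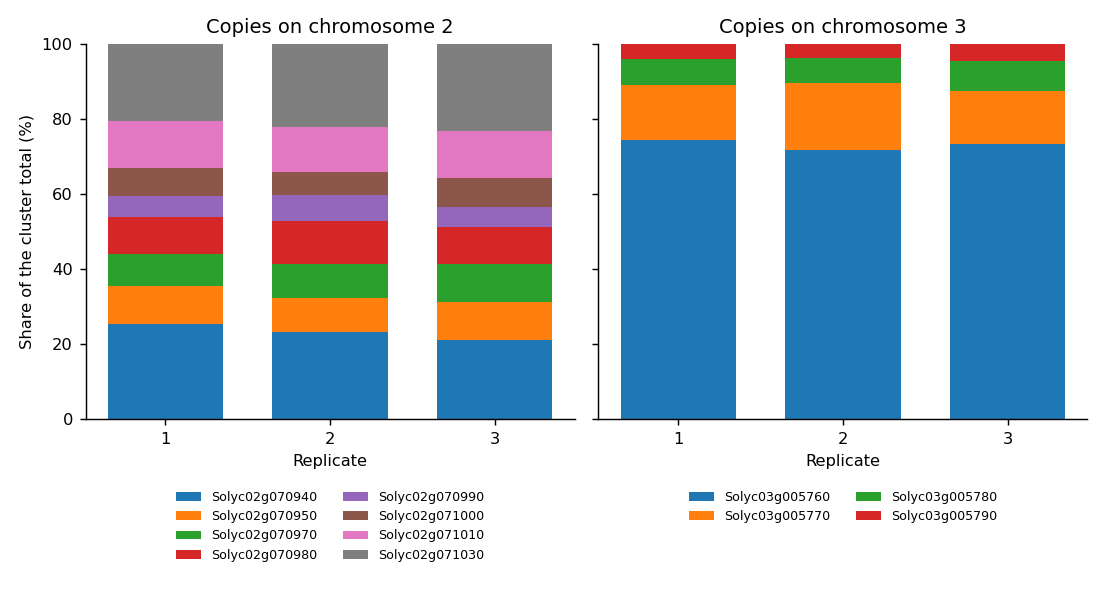
Share of the group total (percent) taken by each copy on chromosome 2 (left) and chromosome 3 (right), with 1 stacked bar per replicate. Solyc03g005760 fills 71.8% to 74.4% of the chromosome 3 bars, while the highest copy on chromosome 2 holds between 23.2% and 25.4%.

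In the smaller pairs the shares ranged from equal to lopsided. Solyc12g011450 took 91.4% ± 1.27 (SD, n = 3) of its pair with Solyc12g011280, though 11 other loci are listed between them. Solyc01g105030 took 54.3% ± 1.84 of its pair with Solyc01g105050. The locus listed between the chromosome 1 copies, Solyc01g105040, had a mean of only 54.5 scaled units.

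The chromosome 8 copies had near-identical values. Solyc08g067320 had 548, 279 and 695 steps in replicates 1, 2 and 3, and Solyc08g067330 had 545, 276 and 692. They differed by 3 steps in each library, or at most 1.08%. Of the 13 pairs of copies that follow each other within a group, this was the only pair within 3% in every library. In 10 of the 13 pairs no other locus is listed between the copies. Over all loci listed directly next to each other, with at least 20 steps in each library, the share was 0.966%.

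A second likeness involved a locus that is not on the list, and it was noticed after the values were seen. Solyc03g005790 had 511, 246 and 657 steps, and Solyc03g005775, listed between Solyc03g005770 and Solyc03g005780, had 511, 246 and 658. Values within 3% in every library also occurred between 4 members and 5 loci on other chromosomes, with largest differences of 1.59% to 2.91%. Likeness within 3% was therefore not confined to neighbouring copies. For those matches each member was compared with all loci, a far wider search than the pairs of copies, so the counts are not alike. How many such matches a search of this size brings by coincidence was not computed. With Solyc03g005775 counted in the group, the share of Solyc03g005760 was 70.3% in place of 73.2%. The counting could have split, dropped or repeated reads of near-identical copies, so the values of single tandem copies are uncertain. Reads of low alignment quality, which were given to no locus, made up 25.6%, 22.9% and 21.4% of the scaled total of loci and summary rows in replicates 1, 2 and 3. Ambiguous reads made up 2.43%, 2.59% and 2.72%. Their part in the shares of the copies was not tested.

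At most members the libraries stood in a like order. Replicate 2 was the lowest library at 28 of the 30 members, against 33.3% of detected loci. The exceptions were Solyc12g009200, with 58.8, 64.4 and 75.4 scaled units in replicates 1, 2 and 3, and Solyc06g069000, which was lowest in replicate 3. Both belong to the lowest members by mean. Replicate 3 was the highest library at 21 of the 30, against 36.5% of detected loci. The order replicate 3, then 1, then 2 held at 20 of the 30, against 20.5% of detected loci. Members more than 1.5-fold lower in replicate 2 than in both other libraries numbered 15 of 30, against 7.27% of detected loci. At over 1.3-fold the count was 25, against 12.6% of detected loci, and at over 2-fold it was 4, against 2.25%. When the background was limited to loci of high mean (at least 1000 scaled units), 23.6% were lowest in replicate 2 and 6.15% were over 1.5-fold lower there. With 1 group there is no test between groups, and these counts describe the 3 libraries.

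**Figure D4:**
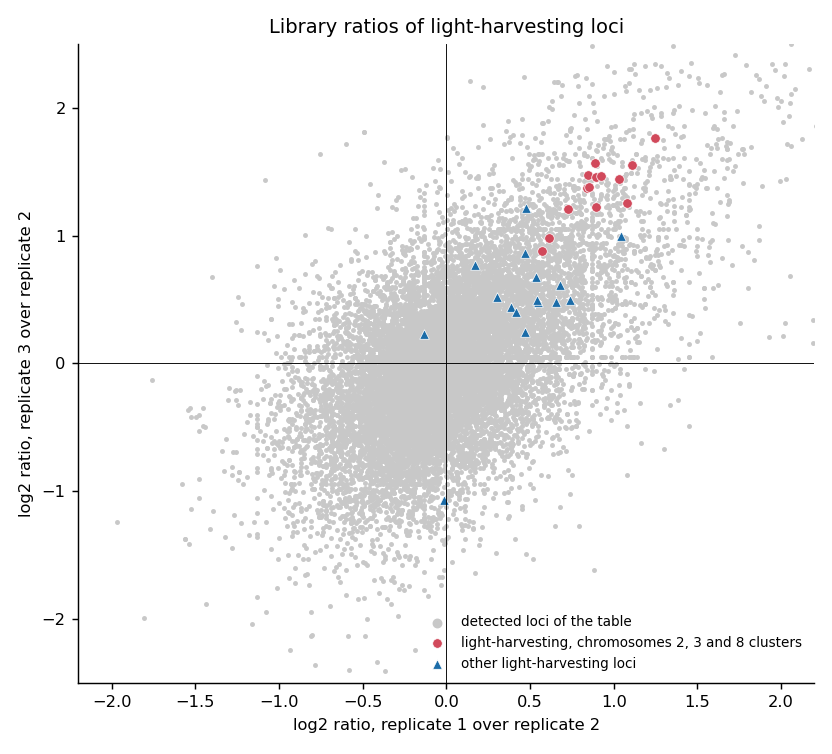
Log2 ratio of replicate 1 over replicate 2 (x axis) against log2 ratio of replicate 3 over replicate 2 (y axis) for detected loci of the table (grey; 73 of 14910 lie outside the axes) and for the light-harvesting loci. The 14 loci of the chromosome 2, 3 and 8 groups (circles) lie in the upper right and higher on the y axis than most of the other 16 (triangles); both axes share replicate 2, so the slope of the cloud is no result.

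The same difference was seen on the log2(value + 1) scale, as each locus's deviation from its own mean over the libraries. The median deviation of the members was 0.13 in replicate 1, -0.51 in replicate 2 and 0.43 in replicate 3. Over detected loci the medians were 0.00, 0.01 and 0.00. In replicate 2 the deviation was above 0 at 1 of the 30 members, in replicate 3 at 29 and in replicate 1 at 27. Of the 14910 detected loci, 7779 were above 0 in replicate 2, 7464 in replicate 3 and 7498 in replicate 1. Without replicate 3 the median in replicate 2 was -0.33 and that in replicate 1 was 0.33. Without replicate 2 the medians were -0.17 in replicate 1 and 0.17 in replicate 3. Without the copies on chromosomes 2, 3 and 8, a setting added after the values were seen, the medians over the other 16 members were 0.17, -0.34 and 0.17 in replicates 1, 2 and 3. Replicate 2 still had the lowest median there, and those of replicates 1 and 3 were nearly equal. In replicate 2, reads outside any locus made up 22.7% of the scaled total, against 22.6% and 21.2% in replicates 1 and 3. With low-quality and ambiguous reads also set aside, loci held 49.4%, 51.9% and 54.7% of the scaled total in replicates 1, 2 and 3. The part of the reads given to no locus in the low values was not tested.

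The size of the difference varied along the family, and the following grouping was made after the values were seen. At the 14 loci of the chromosome 2, 3 and 8 groups, replicate 3 was the highest library and replicate 2 the lowest without exception, an order held by 20.5% of detected loci. Their ratio of replicate 3 to replicate 2 ran from 1.84 to 3.39, with a median of 2.66. Solyc02g071000 had the widest ratio, with 790.5, 333.4 and 1131 scaled units in replicates 1, 2 and 3. Solyc03g005770 had the narrowest. Of these 14 loci, 13 were more than 1.5-fold lower in replicate 2 than in both others, against 7.27% of detected loci and 6.15% of those with a mean of at least 1000. The group was picked for its values, so these shares are a description.

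The other 16 members had a median ratio of replicate 3 to replicate 2 of 1.41, and 2 of them were more than 1.5-fold lower in replicate 2 than in both others, against 7.27% of detected loci. Their highest library was replicate 1 at 8 loci, replicate 3 at 7 and replicate 2 at 1, where 27.3%, 36.5% and 36.2% of detected loci had theirs. The order replicate 3, then 1, then 2 held at 6 of the 16 (37.5%), against 20.5% of detected loci. Both copies of the chromosome 12 pair were among these. Solyc12g011450 had the highest ratio of replicate 3 to replicate 2 among the 16, at 2.32. Replicates 1 and 3 lay close together above replicate 2 at several of the 16, among them Solyc10g006230, at 644.5, 312.6 and 623.9 scaled units, and Solyc06g069730, at 94.8, 59.2 and 90.5. The chromosome 1 pair showed the smallest ratios of the tandem groups, at 1.32 for Solyc01g105030 and 1.19 for Solyc01g105050. The chromosome 2, 3 and 8 groups made up 66.6%, 60.6% and 71.2% of the family total in replicates 1, 2 and 3. Copies in a group may share reads, so the 14 loci are not 14 separate observations, and the difference between the groups was not tested.

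The spread between libraries was wider for the family than for most loci. The median SD of log2(value + 1) was 0.54 over the members, a factor of 1.45, and 0.27 over detected loci, a factor of 1.21. A spread above the members' median was found at 12.5% of detected loci. Single members ran from 0.18 at Solyc12g009200 to 0.90 at Solyc02g071000, and 25 of 30 exceeded the median of detected loci. Without replicate 2 the medians were 0.26 for the members and 0.22 for detected loci. Without replicate 1 they were 0.70 and 0.26, and without replicate 3 they were 0.47 and 0.19. The members' median was thus smallest without replicate 2 and rose without replicate 1. An SD over fewer libraries tends to be smaller, which can lower each of these values. Expressed as shares of the family total, the members had a median SD of 0.23 on the log2 scale. It was 0.54 for the same values without a pseudocount, and the SD was smaller as a share at 24 of the 30. The family total contains each member itself, so a smaller SD is partly built in. No such value was computed for another set of loci.

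Other nuclear photosynthesis genes were represented by 31 loci recorded from general knowledge of the tomato numbering under photosystem subunits, chlorophyll synthesis, the Rubisco small subunit and Rubisco activase. Their membership could not be checked against names. Of these, 30 are in the table and 29 were detected, with a median mean of 953.7 scaled units. Replicate 2 was lowest at 21 of the 29, against 28 of 30 for the light-harvesting loci and 33.3% of detected loci. Replicate 3 was highest at 22 of the 29 (75.9%), against 70% of the light-harvesting loci and 36.5% of detected loci. The order replicate 3, then 1, then 2 held at 17 of the 29 (58.6%), against 66.7% and 20.5%. Both sets thus had this order more often than detected loci did. Among the light-harvesting loci it held at all 14 of the chromosome 2, 3 and 8 groups, and at 6 of the other 16 (37.5%). Only 2 of the 29 were more than 1.5-fold lower in replicate 2 than in both others, a share close to the 7.27% of detected loci. At over 1.3-fold the count was 7 of the 29 (24.1%), against 83.3% of the light-harvesting loci and 12.6% of detected loci. Their median deviations were 0.00, -0.17 and 0.22 in replicates 1, 2 and 3. They took 1.26%, 1.04% and 1.56% of the summed locus values in replicates 1, 2 and 3, and the median SD was 0.30. The difference between these loci and the light-harvesting loci was not tested.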

How the data were processed

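Polyadenylated RNA of 3 slmp libraries was measured; per the labels' protocols, libraries were made with a 3′ QuantSeq kit. The deposited table holds 1 signal value per locus and library, called the scaled value here. The tools named per the submitters' processing notes are Bowtie2, HTSeq and DESeq2, whose versions and settings, like the strand and genome build, are not given in the sources. Every value was a whole multiple of 1 step per library (0.948, 1.04 and 1.08 in replicates 1, 2 and 3), within 0.001 of a step. No value of 1 step occurred, so no count model was fitted to compare libraries. The exact intervals and the counting errors do treat steps as read counts. The 3 summary rows of the counting program were left out of totals.

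Shares were computed per library and given as mean ± SD. Intervals are 95% exact Clopper-Pearson intervals on steps and cover counting error only. Detected means at least 10 in each library; the pseudocount was 1; near-identical means at most 3% apart in every library. The level of the mutated gene was not analysed here. With 1 group no test between groups was possible. Values are given in every library for the 10 members highest by mean, by a stated rule; others are given by range, with tandem copies, low members and exceptions named, the exceptions after their values were seen. The members and lists were chosen with earlier results of these data known. The calculations were tested on simulated data. Alternatives changed the scaling, pseudocount, filters, thresholds, denominators and libraries used. Python 3.11.15, numpy 2.4.6, pandas 2.3.3, SciPy 1.17.1 and matplotlib 3.10.9 were used.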

Additional observations from a re-analysis of the deposited data

Results flagged for a closer look

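None of the light-harvesting values use the reads left without an assigned locus. Their lowest shares over the 3 libraries were 21.2% of the scaled total for reads outside any locus, 21.4% for reads aligned with low quality and 2.43% for ambiguous reads. There is no control library for these shares. How many of these reads come from light-harvesting genes was not tested. Single outlying libraries were not looked for by a test, since 3 values are too few.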

How the results depend on the processing

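Of 83 combinations of a result and an alternative, 74 stayed within a set limit, 8 moved and 1 changed sign. The limit was the spread between libraries, or 1.5 times for counts, median SDs and background percentages. For the median deviations the limit was the members' median SD of 0.54, wider than the deviations of 0.13, -0.51 and 0.43 themselves. A deviation that vanished would have stayed within it, so for them only a change of sign or a rise could be seen. Some of the 74 could not have moved, because every member was already detected. These were the settings without a detection filter, and the detected count with a replicate left out, a lower threshold or a threshold on the mean. They are no check of the results. The family share was 0.663% with the summary rows in the total, a larger denominator by construction, and between 1.08% and 1.51% with a replicate left out. The share of Solyc03g005760 in its group was 70.3% with Solyc03g005775 added. Counting the chromosome 8 copies once leaves a single copy, with 100% of its pair by construction. Near-identical pairs of copies numbered 0 at a tolerance of 1% and 1 to 2 with a replicate left out; the count of 2 arose without replicate 1. Members lower in replicate 2 numbered 25 at over 1.3-fold and 4 at over 2-fold, where 12.6% and 2.25% of detected loci were called. The median deviation of replicate 1 ranged from -0.17 without replicate 2, the change of sign, to 0.33 without replicate 3. The median SD ranged from 0.26 without replicate 2 to 0.70 without replicate 1. Without the chromosome 2, 3 and 8 copies the median deviations were 0.17, -0.34 and 0.17 in replicates 1, 2 and 3; each is within the members' median SD of the value over all members, but that of replicate 3 is far lower than 0.43. Other scalings moved the median deviation of replicate 2 only to -0.52. Their factors lay between 0.980 and 1.01 in every library, so little change was possible and they are a weak check. The 1.3-fold and 2-fold limits, the added locus, and the settings without Solyc03g005760 or without the chromosome 2, 3 and 8 copies were chosen after seeing the data. No paired analysis was possible because there is just 1 group.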
